A study of Mus musculus with 12 samples.

Results

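De novo lipogenesis was followed through 10 genes in the livers of 2-day-old mouse pups that lacked or carried PPARα, the nuclear receptor that fatty acids activate and that switches on their oxidation. The genes were listed by their role in the pathway, with earlier results of these data known. All 10 were measured, each on a probe set annotated to that gene alone, among 19938 genes read in the same way. Where a gene had more than 1 such probe set, as Acaca, Me1 and Mid1ip1 did, the one with the highest mean over the 12 arrays was taken, and the other is given beside it. This gave 13 probe sets for the 10 genes.

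Whole livers of 6 Ppara-/- pups and 6 Ppara+/+ pups were hybridised at postnatal day 2, 1 pup to an array, with 3 males and 3 females of each genotype. The Ppara-/- pups were constitutive nulls of 1 mutant line, lacking the receptor in every tissue, and both genotypes were suckling pups born to heterozygous parents. The sample labels name the strain SV129, whereas the methods describe a C57BL/6 background. The pups came from 3 litters per genotype, and which pup belonged to which litter is unknown here, so that p-values measure differences between single pups and may be too small where littermates are alike. Values are log2 intensities from the robust multi-array average (RMA). They are compared between genotypes for 1 probe set at a time, since probe sets differ in how brightly they hybridise.

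In the liver, de novo lipogenesis turns surplus carbohydrate into fatty acids. Citrate leaves the mitochondrion through the carrier Slc25a1, ATP-citrate lyase (Acly) cleaves it to acetyl-CoA, the acetyl-CoA carboxylases (Acaca and Acacb) add a carbon to form malonyl-CoA, and fatty acid synthase (Fasn) joins the units into palmitate with NADPH supplied in part by malic enzyme (Me1). Malonyl-CoA also blocks the entry of fatty acids into mitochondria at Cpt1, and malonyl-CoA decarboxylase (Mlycd) removes it. The programme is driven by the sterol-responsive factor Srebf1 and the carbohydrate-responsive factor ChREBP, encoded by Mlxipl, and is usually low in the suckling liver, which receives milk rich in fat.

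The 10 genes did not move as 1 block. At an adjusted p under 0.05 (limma, sex as a covariate, Benjamini-Hochberg over all probe sets), 3 were higher in Ppara-/- livers (Acacb, Acly and Slc25a1) and 2 were lower (Me1 and Mid1ip1), whereas Fasn, Acaca, Thrsp, Mlxipl and Mlycd did not pass. Over all genes, 1.99% were called higher and 1.12% lower. The same 5 genes were those whose genotypes did not overlap on any array, against 2.88% of all genes with all 6 Ppara-/- values above the 6 Ppara+/+ values and 1.43% with all 6 below. The median difference of the 10 genes was 0.05 on the log2 scale, beside -0.01 over all genes.

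**Figure D1:**
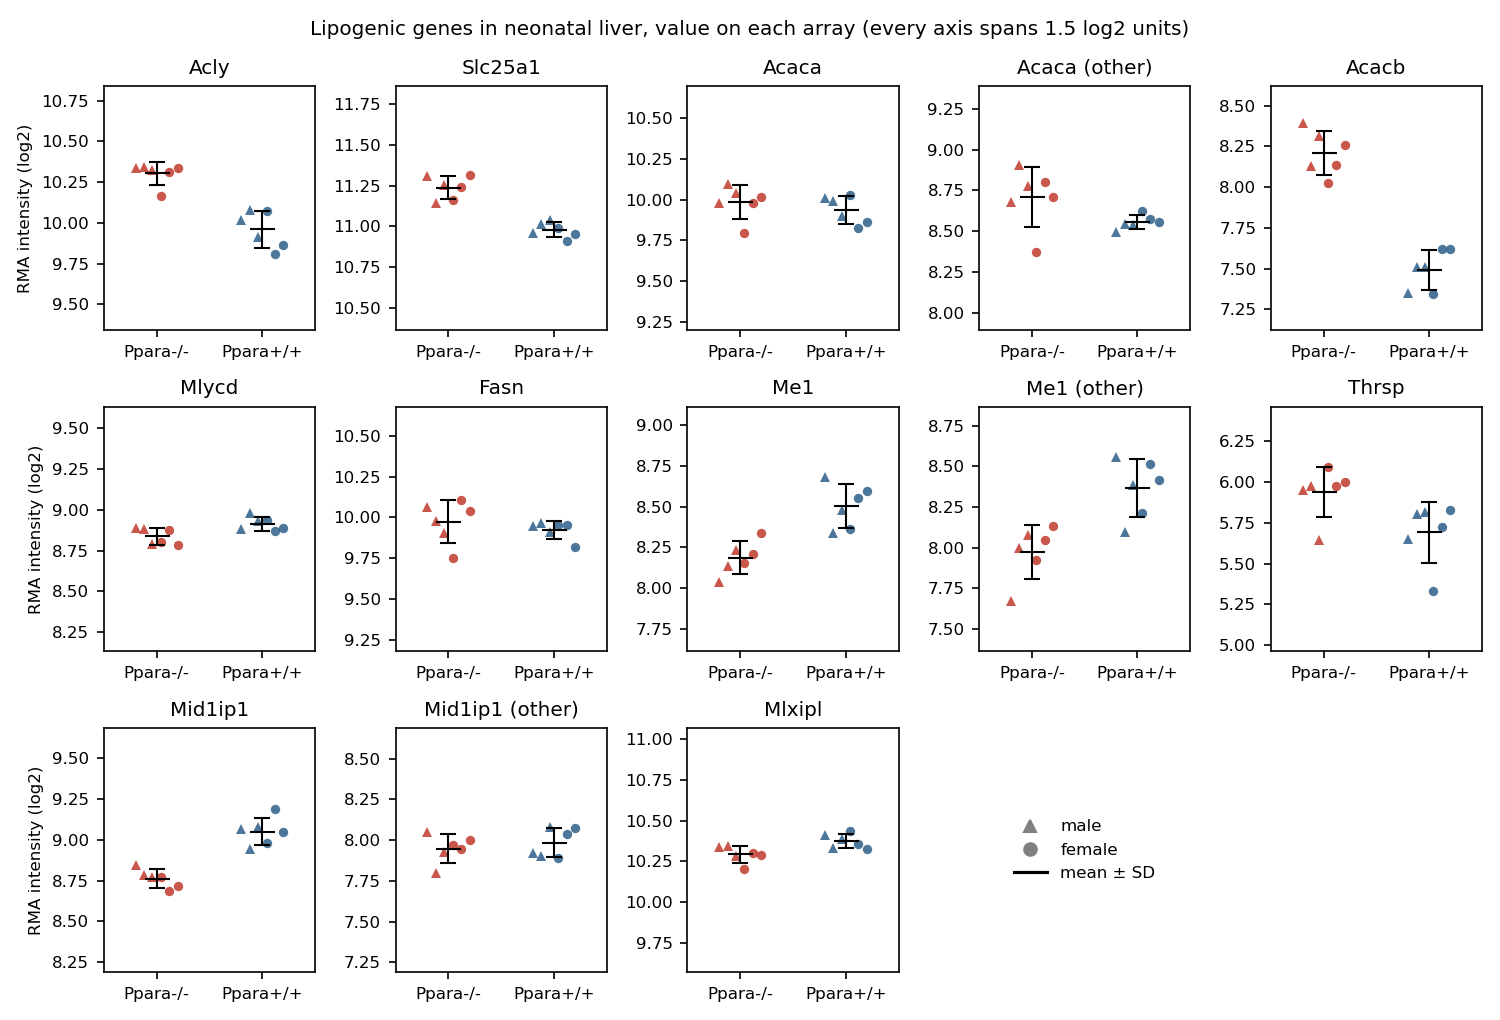
RMA intensity (log2) of the 10 lipogenic genes on each array, with Ppara-/- on the left and Ppara+/+ on the right; triangles are males, circles are females, and bars give the mean ± SD of 6 arrays. The genotypes are apart for Acly, Slc25a1, Acacb, Me1 and the brighter probe set of Mid1ip1, and overlap in the other panels.

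The disrupted gene was checked first. Ppara averaged 10.27 ± 0.05 in Ppara-/- livers and 11.16 ± 0.12 in Ppara+/+ livers (SD, n = 6 each), a log2 difference of -0.89 (adjusted p = 1.2e-06, limma), and every Ppara-/- array lay below every Ppara+/+ array. It is unknown here whether the deleted part is what that probe set reads. The arrays were alike in level (medians between 7.157 and 7.199) and in pattern (pairwise correlations of at least 0.989), and their number limits the precision.

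Markers of the cell types in whole liver were set beside these values, since fewer cells of a type and less RNA per cell cannot be told apart in whole tissue. None of 9 hepatocyte markers passed, and their summed intensity ran from 16.77 to 16.79 (log2) in Ppara-/- livers and from 16.74 to 16.80 in Ppara+/+ livers. None of 12 Kupffer cell markers and none of 12 endothelial markers passed, although all were on average higher in Ppara-/- livers (medians 0.20 and 0.13), and all 10 erythroid markers were on average lower (median -0.19, none passing). The summed Kupffer cell markers ran from 13.93 to 14.09 in Ppara-/- livers and from 13.66 to 14.06 in Ppara+/+ livers, and the endothelial ones from 13.91 to 14.03 in Ppara-/- livers and from 13.76 to 13.95 in Ppara+/+ livers. The summed erythroid markers ran from 14.75 to 15.12 in Ppara-/- livers and from 14.87 to 15.23 in Ppara+/+ livers. The array of Ppara+/+ replicate 7 stood apart from its genotype, with the highest Kupffer cell sum (14.06) and the lowest erythroid sum (14.87) of the 6. Without it, 5 Kupffer cell, 3 endothelial and 1 stellate cell markers passed as higher and 3 erythroid markers as lower. Calls over all probe sets then also went from 536 to 933 higher and from 281 to 454 lower. The same 3 members were higher and the same 2 lower without that array, with log2 differences of 0.69 for Acacb, 0.38 for Acly, 0.26 for Slc25a1, -0.35 for Me1 and -0.30 for Mid1ip1. The part of these cell types in the results was not tested.

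Among the remaining lists, medians were 0.10 for 10 stellate cell markers, 0.07 for 5 cholangiocyte markers, 0.07 for 8 granulocyte markers, -0.07 for 8 adipocyte markers and 0.54 for 8 pancreatic acinar markers, none of them passing. Of the markers of adipocytes, which also make fatty acids, 6 were below the median of all values. The summed pancreatic markers were uneven, between 9.97 and 12.74 in Ppara-/- livers and between 9.89 and 11.53 in Ppara+/+ livers, and were highest in Ppara-/- replicates 6 (12.74) and 10 (12.17).

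The promoters of the 5 genes that passed are shown so that the sequence before each start can be read beside the direction of its change. Each window holds 250 bases before and 50 bases from a RefSeq start site (GRCm38.p6), read 5′ to 3′ on the gene's own strand. Capitals mark matches to 5 sets of letters, searched on both strands. The first is the half-site bound by PPARα and other nuclear receptors, AGGTCA. The second is its direct repeat with 1 base between the copies, so it overlaps the first. The third is the E-box, whose letters are CACGTG. The fourth is a sterol regulatory element, written TCACNCCAC. The last is the box named for its letters, CCAAT. The windows are Acly at chr11:100527951-100528250 (minus strand), Slc25a1 at chr16:17928170-17928469 (minus strand), Acacb at chr5:114165268-114165567 (plus strand), Me1 at chr9:86695865-86696164 (minus strand) and Mid1ip1 at chrX:10717115-10717414 (plus strand). The Acacb start lies inside the annotated gene (chr5:114146321-114250761), downstream of its first base, and the others are at the gene's outer end.
Acly: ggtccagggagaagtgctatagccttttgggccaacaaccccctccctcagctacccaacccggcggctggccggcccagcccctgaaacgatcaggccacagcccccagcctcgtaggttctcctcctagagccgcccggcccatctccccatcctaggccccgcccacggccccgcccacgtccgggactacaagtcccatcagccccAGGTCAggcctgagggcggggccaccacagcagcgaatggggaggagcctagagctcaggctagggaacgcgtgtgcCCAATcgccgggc
Slc25a1: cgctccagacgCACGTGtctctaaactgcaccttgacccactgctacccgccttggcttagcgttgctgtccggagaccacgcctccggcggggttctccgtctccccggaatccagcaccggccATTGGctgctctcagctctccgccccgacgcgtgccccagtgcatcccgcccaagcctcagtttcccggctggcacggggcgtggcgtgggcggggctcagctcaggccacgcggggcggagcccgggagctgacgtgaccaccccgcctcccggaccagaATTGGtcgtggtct
Acacb: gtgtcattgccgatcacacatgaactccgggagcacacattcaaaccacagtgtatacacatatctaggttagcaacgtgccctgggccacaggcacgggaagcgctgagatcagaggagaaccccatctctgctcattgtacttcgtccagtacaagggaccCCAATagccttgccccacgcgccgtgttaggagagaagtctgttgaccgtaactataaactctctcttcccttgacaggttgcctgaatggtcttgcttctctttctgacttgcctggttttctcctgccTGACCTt
Me1: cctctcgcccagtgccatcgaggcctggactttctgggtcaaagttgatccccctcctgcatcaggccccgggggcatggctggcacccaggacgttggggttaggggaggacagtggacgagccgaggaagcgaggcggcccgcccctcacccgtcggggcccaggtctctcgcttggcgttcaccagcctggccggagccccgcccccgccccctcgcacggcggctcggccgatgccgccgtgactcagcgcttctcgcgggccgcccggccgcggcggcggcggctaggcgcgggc
Mid1ip1: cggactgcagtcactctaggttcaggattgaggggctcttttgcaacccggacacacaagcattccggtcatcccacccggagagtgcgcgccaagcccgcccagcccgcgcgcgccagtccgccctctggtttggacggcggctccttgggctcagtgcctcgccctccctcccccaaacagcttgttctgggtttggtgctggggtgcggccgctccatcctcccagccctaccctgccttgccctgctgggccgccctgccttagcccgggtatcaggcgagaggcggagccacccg

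The half-site was found at -40 in the Acly window and, on the other strand, at 44 in the Acacb window, counted from the start site, and in none of the other 10 windows of the 10 genes. It was found in 16.3% of all 32851 RefSeq windows of this length. The direct repeat, in 0.0396% of all windows, was in none of the 12. The E-box, in 7.15% of all windows, was at -239 in Slc25a1 and at -98 in 1 of 2 windows of Mlxipl. The sterol element, in 1.24% of all windows, was found in the other Mlxipl window. The CCAAT letters, in 37.4% of all windows, were found in 8 of the 12 windows, each of a different gene. Among these genes were Acly, Acacb and Slc25a1, which rose, and Me1, which fell. The Me1 match, at -208, was in another window of that gene, which is not printed. The printed Me1 and Mid1ip1 windows, from the 2 genes that fell, held no exact match to any of the 5 sets of letters. Imperfect copies were not searched for in any window, so these windows cannot be called empty of sites. The Me1 window, for example, holds gggtcaaagttga, which resembles the direct repeat without matching its letters. These are matches of letters in a short window and say nothing of which factor binds there.

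The supply of cytosolic acetyl-CoA was read from the citrate carrier and the lyase, and both were higher in Ppara-/- livers. Slc25a1 (chr16:17925211-17928219) ran from 11.15 to 11.31 with a median of 11.25 in Ppara-/- livers, and from 10.91 to 11.04 with a median of 10.98 in Ppara+/+ livers. The lowest Ppara-/- array was above the highest Ppara+/+ array. Its means were 11.24 ± 0.07 and 10.98 ± 0.05 (SD, n = 6 each), a 1.20-fold rise (log2 difference 0.26, SE 0.0420, adjusted p = 0.00667, limma). Acly (chr11:100476352-100528000) ran from 10.16 to 10.34 with a median of 10.33 in Ppara-/- livers, and from 9.81 to 10.08 with a median of 9.97 in Ppara+/+ livers. In Ppara-/- livers 5 arrays lay within 10.31 to 10.34, and replicate 10, a female, was lower at 10.16 but still above every Ppara+/+ array. The means were 10.30 ± 0.07 and 9.96 ± 0.11 (SD, n = 6 each), a 1.27-fold rise (log2 difference 0.34, SE 0.0532, adjusted p = 0.00483, limma).

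Among 13 further genes of acetyl-CoA and citrate supply, 2 rose and 1 fell, with a median of 0.01. Pyruvate carboxylase (Pcx), which makes the oxaloacetate that citrate is built from, rose by 0.19 (adjusted p = 0.0136, limma), and the mitochondrial 2-oxoglutarate carrier Slc25a11 rose by 0.18 (adjusted p = 0.0358). The count of 2 became 1 without any 1 of Ppara-/- replicates 4, 6, 10, 11 and 12 or of Ppara+/+ replicates 1, 2, 3, 8 and 9. Acss3, a mitochondrial ligase for short-chain acids, ran from 6.37 to 6.86 in Ppara-/- livers and from 7.58 to 8.24 in Ppara+/+ livers, and its log2 difference was -1.25 (adjusted p = 0.000163).

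The carboxylases make malonyl-CoA in different places, Acaca (chr11:84129635-84401651) in the cytosol for synthesis and Acacb (chr5:114146321-114250761) at the mitochondrial surface, where its product restrains fatty acid entry. Acacb had the largest difference of the 10 genes. In Ppara-/- livers it was 8.40, 8.13 and 8.32 in males (replicates 4, 5 and 6) and 8.03, 8.13 and 8.26 in females (replicates 10, 11 and 12). In Ppara+/+ livers it was 7.35, 7.51 and 7.51 in males (replicates 1, 2 and 3) and 7.35, 7.62 and 7.62 in females (replicates 7, 8 and 9). The genotypes were separated in both sexes, the lowest Ppara-/- array being at 8.03 and the highest Ppara+/+ array at 7.62. The means were 8.21 ± 0.14 and 7.49 ± 0.12 (SD, n = 6 each), a 1.64-fold rise with a 95% confidence interval from 1.47 to 1.84 (log2 difference 0.72, SE 0.0742, adjusted p = 0.000307, limma).

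Acaca did not pass. It ran from 9.80 to 10.10 with a median of 9.997 in Ppara-/- livers, and from 9.82 to 10.03 with a median of 9.94 in Ppara+/+ livers. Its log2 difference was 0.05, with a 95% confidence interval from -0.07 to 0.16 (adjusted p = 0.731, limma), which is a fold between 0.956 and 1.12. The other Acaca probe set differed by 0.15 (adjusted p = 0.372), and ran from 8.37 to 8.91 in Ppara-/- livers against 8.498 to 8.62 in Ppara+/+ livers. On that probe set Ppara-/- replicate 10, at 8.37, was below every Ppara+/+ array. The remaining Ppara-/- arrays, from 8.68 to 8.91, were above every Ppara+/+ array. Within arrays, Acacb minus Acaca was higher by 0.67 in Ppara-/- livers, with no overlap between genotypes, and no test is given because the pair was picked after its values had been seen.

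Acacb is also the carboxylase of muscle, so markers of that tissue were added after the Acacb values had been seen. None of 10 skeletal muscle markers passed, 7 of them were below the median of all values, and their median difference was 0.11. Their summed intensity was 9.75 to 11.06 in Ppara-/- livers and 9.75 to 10.40 in Ppara+/+ livers, highest in Ppara-/- replicates 12 (11.06) and 6 (10.55). Acacb differed by 0.70 without replicate 12 and by 0.70 without replicate 6. The part of muscle in the Acacb result was not tested.

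Neither the gene that removes malonyl-CoA nor the transporter it blocks passed. Mlycd (chr8:119394852-119421838), which degrades malonyl-CoA, ran from 8.78 to 8.89 with a median of 8.84 in Ppara-/- livers, and from 8.87 to 8.98 with a median of 8.91 in Ppara+/+ livers. The ranges overlapped only between 8.87 and 8.89. Its log2 difference was -0.08 (SE 0.0360, adjusted p = 0.334, limma). Cpt1a, the hepatic form of the blocked transporter, differed by 0.07 (adjusted p = 0.337). In the list of 4 measured genes of mitochondrial fatty acid entry, 2 fell, both acting after the step that malonyl-CoA blocks, the carnitine carrier Slc25a20 by 0.89 (adjusted p = 4.31e-07) and Cpt2 by 0.26 (adjusted p = 0.00525).

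The AMP-activated kinase switches off both carboxylases by phosphorylation, which arrays do not measure. Of 14 genes of the kinase and of carboxylase control, 1 passed, the regulatory subunit Prkag2, with a log2 difference of 0.17 (adjusted p = 0.0465), and the list's median was -0.03. That single call was lost without any 1 of Ppara-/- replicates 4, 5, 6, 11 and 12 or of Ppara+/+ replicates 1, 2, 3, 8 and 9, and without Ppara+/+ replicate 7 the list had 2. The catalytic subunit Prkaa2 differed by -0.07 (adjusted p = 0.710).

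**Figure D2:**
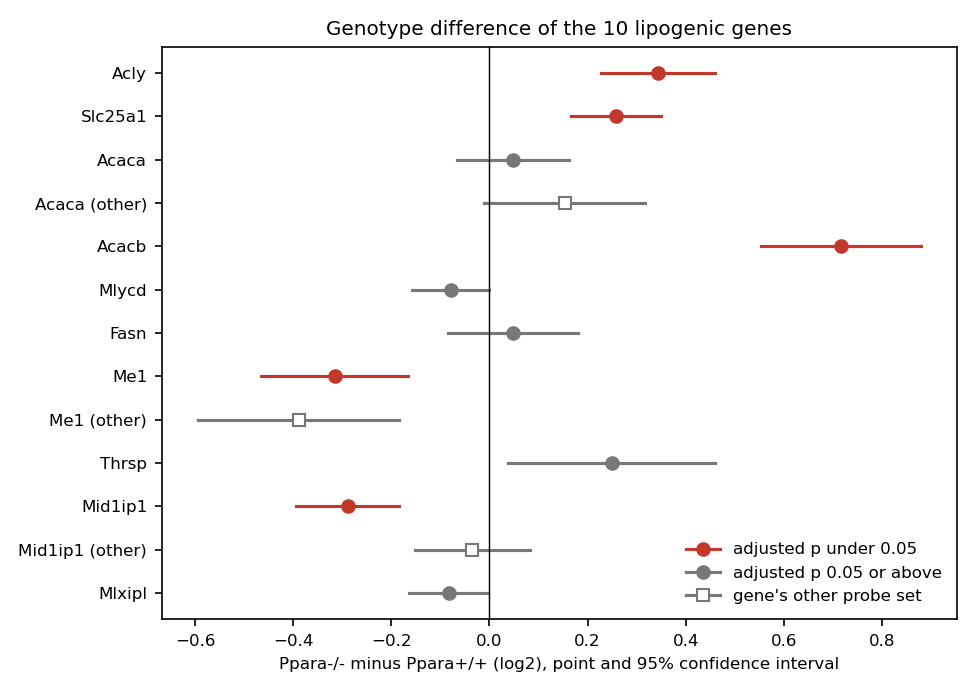
Difference between genotypes, Ppara-/- minus Ppara+/+ (log2), for the 13 probe sets of the 10 genes; points are limma estimates and lines are 95% confidence intervals. Acacb is farthest to the right at 0.72, Acly and Slc25a1 follow at 0.34 and 0.26, and Me1 and the brighter Mid1ip1 probe set lie to the left at -0.32 and -0.29.

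Fasn (chr11:120805958-120825166), the enzyme that assembles palmitate, was not distinguished between genotypes. It ran from 9.75 to 10.11 with a median of 10.01 in Ppara-/- livers, and from 9.82 to 9.97 with a median of 9.95 in Ppara+/+ livers. The Ppara+/+ arrays lay inside the Ppara-/- range, which reached below them only at replicate 10 (9.75). Without that array the log2 difference of Fasn was 0.10 (adjusted p = 0.405, limma). With each array left out in turn, Fasn differed by 0.02 to 0.10 and never passed. Its means were 9.97 ± 0.13 and 9.93 ± 0.06 (SD, n = 6 each), and its log2 difference of 0.05 had a 95% confidence interval from -0.08 to 0.18 (adjusted p = 0.772, limma), which is a fold between 0.943 and 1.13. The interval of Fasn ends below the estimates of Acly and Slc25a1 but overlaps the interval of Slc25a1, which runs from 0.17 to 0.35. Such a comparison is no test of a difference between genes. Within arrays, Acly minus Fasn was higher by 0.30 and Slc25a1 minus Fasn by 0.21 in Ppara-/- livers, each with no overlap between genotypes, and no test is given because these pairs too were picked for their difference.

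NADPH for synthesis comes in part from malic enzyme. Me1 (chr9:86581363-86695914) was lower in Ppara-/- livers, where it ran from 8.04 to 8.34 with a median of 8.18, against 8.34 to 8.68 with a median of 8.52 in Ppara+/+ livers. The 2 groups met without overlapping, the highest Ppara-/- array being at 8.338 and the lowest Ppara+/+ array at 8.339. The means were 8.19 ± 0.10 and 8.502 ± 0.14 (SD, n = 6 each), a 1.24-fold fall (log2 difference -0.32, SE 0.0683, adjusted p = 0.0356, limma). The other Me1 probe set did not pass (log2 difference -0.39, adjusted p = 0.0575), with 7.67 to 8.13 in Ppara-/- livers and 8.10 to 8.56 in Ppara+/+ livers. The difference between the probe sets, 0.07, had an exact two-sided permutation p of 0.134 over 924 arrangements. The Me1 call did not hold without any 1 of Ppara-/- replicates 4, 5, 6, 10 and 11 or of Ppara+/+ replicates 1, 3, 8 and 9, where its adjusted p was 0.0513 to 0.0902, and its log2 difference stayed between -0.35 and -0.27 over all 12 omissions. None of 10 other measured genes of NADPH supply passed in either direction, and their median difference was 0.00022. G6pdx, the entry enzyme of the pentose phosphate pathway, had no value in that list.

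Thrsp and Mid1ip1 encode the related proteins Spot 14 and Mig12. Mig12 binds acetyl-CoA carboxylase and helps it to polymerise into its active form. Mid1ip1 (chrX:10717365-10719702) ran from 8.68 to 8.85 with a median of 8.77 in Ppara-/- livers, and from 8.94 to 9.19 with a median of 9.06 in Ppara+/+ livers, with no overlap. The means were 8.76 ± 0.06 and 9.05 ± 0.09 (SD, n = 6 each), a 1.22-fold fall (log2 difference -0.29, SE 0.0477, adjusted p = 0.00716, limma). The other Mid1ip1 probe set, annotated to cDNA clones of that gene only, did not pass, with 7.80 to 8.05 in Ppara-/- livers and 7.89 to 8.08 in Ppara+/+ livers (log2 difference -0.03, adjusted p = 0.821). The difference between the probe sets was -0.25 (exact two-sided permutation p = 0.00433, adjusted p = 0.013 over the 3 genes with 2 probe sets), and the mean of both fell short of the threshold (-0.16, adjusted p = 0.0631). The fall therefore rests on 1 of 2 probe sets.

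Thrsp (chr7:97412933-97417550), long used as a marker of lipogenic response, was dim, with a mean of 5.82 over the 12 arrays, below every array's median. It ran from 5.65 to 6.09 with a median of 5.98 in Ppara-/- livers, and from 5.33 to 5.83 with a median of 5.76 in Ppara+/+ livers. Of the Ppara-/- arrays 5 were above every Ppara+/+ array, and replicate 6 was among the Ppara+/+ values. The log2 difference was 0.25 with a 95% confidence interval from 0.04 to 0.46 (adjusted p = 0.251, limma). It was 0.17 without Ppara+/+ replicate 7 and 0.31 without Ppara-/- replicate 6, and passed in neither case.

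Mlxipl (chr5:135089890-135139768), which encodes ChREBP, was slightly lower on average in Ppara-/- livers and did not pass. It ran from 10.20 to 10.34 with a median of 10.29 in Ppara-/- livers, and from 10.32 to 10.43 with a median of 10.37 in Ppara+/+ livers. Its log2 difference was -0.08 (SE 0.0368, adjusted p = 0.321, limma). Its partner Mlx differed by 0.11 (adjusted p = 0.318). Among 11 measured carbohydrate-responsive genes, 1 passed, the arrestin-like Arrdc4, which rose by 0.47 (adjusted p = 0.0117) and was higher in each Ppara-/- liver (9.98 to 10.57) than in any Ppara+/+ liver (9.76 to 9.96). The list's median was 0.15. Pklr, the liver pyruvate kinase and a classical ChREBP target, differed by 0.20 (adjusted p = 0.246), and Txnip, its other widely used target, by -0.07 (adjusted p = 0.745). The count was 2 without Ppara-/- replicate 4 or 10 and 3 without Ppara+/+ replicate 7.

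Of 15 measured transcriptional regulators of lipogenesis, sterol-responsive and others, 1 rose and none fell, with a median of 0.04. Insig1, which holds the sterol-responsive factors in the endoplasmic reticulum, was the one that passed, with 10.74 to 11.11 in Ppara-/- livers and 10.38 to 10.73 in Ppara+/+ livers (log2 difference 0.39, adjusted p = 0.00932). Srebf1 ran from 9.39 to 9.66 in Ppara-/- livers and from 9.63 to 10.17 in Ppara+/+ livers. Its log2 difference of -0.34 did not pass (adjusted p = 0.0788), although 1 regulator passed as lower without Ppara+/+ replicate 9, and 2 passed as higher without Ppara-/- replicate 5. Nr1h3, encoding the oxysterol receptor LXRα upstream of Srebf1, differed by 0.11 (adjusted p = 0.493). None of 10 genes of insulin and glucose signalling passed.

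Beyond palmitate, genes of elongation and desaturation moved in both directions. Of 16 measured, 3 fell and 2 rose, and the median was 0.03. Scd1, the desaturase that makes oleate and a textbook target of both PPARα and Srebf1, fell to 7.58 to 8.10 in Ppara-/- livers, against 8.43 to 9.05 in Ppara+/+ livers (log2 difference -0.80, adjusted p = 0.000742). Hacd3, a dehydratase of the elongation cycle, fell by 0.60 (adjusted p = 1.27e-06) and Fads2, the first desaturase of polyunsaturated fatty acids, fell by 0.36 (adjusted p = 0.00372). Elovl6, which extends palmitate to stearate, rose, with 10.65 to 11.04 in Ppara-/- livers and 10.27 to 10.57 in Ppara+/+ livers (log2 difference 0.47, adjusted p = 0.00554), as did Fads3 by 0.28 (adjusted p = 0.00372). The list had 3 calls lower and 2 higher whichever 1 of the 12 arrays was left out. None of 16 genes of triglyceride assembly passed, though 2 were called higher without Ppara-/- replicate 10 and 1 without replicate 11. The largest difference in that list, picked out after its values were seen, was that of Mogat2, a monoacylglycerol acyltransferase, with 8.32 to 9.61 in Ppara-/- livers and 7.90 to 8.23 in Ppara+/+ livers (log2 difference 0.75, SE 0.180, adjusted p = 0.0575). None of 7 genes of the separate mitochondrial synthesis pathway passed.

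**Figure D3:**
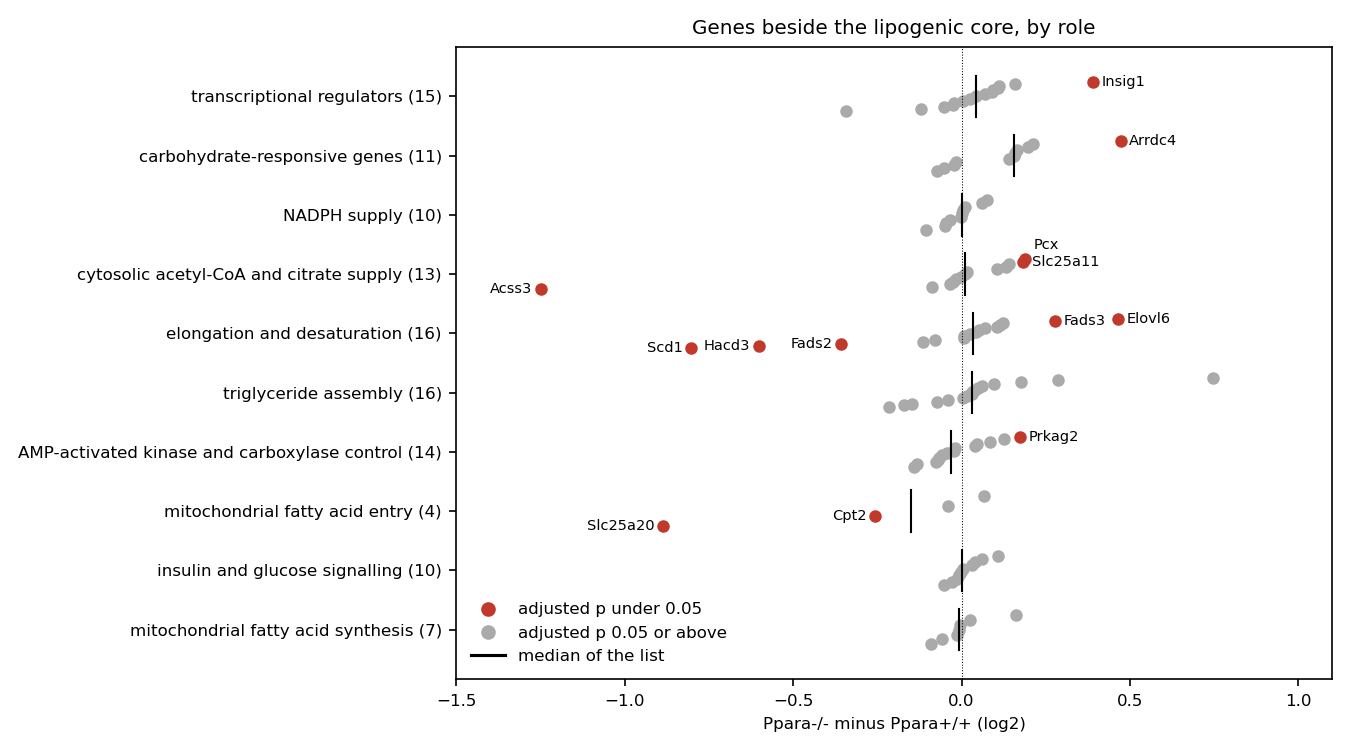
Difference between genotypes, Ppara-/- minus Ppara+/+ (log2), for genes beside the lipogenic core, by role, with the number of measured genes in brackets; red points passed an adjusted p under 0.05 and the black line is the list's median. Scd1, Hacd3 and Fads2 lie to the left and Elovl6 and Fads3 to the right within 1 list, while NADPH supply and triglyceride assembly have no red point.

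Both sexes were compared because the pups were balanced for it. Acacb was the only one of the 10 genes to pass within each sex, with log2 differences of 0.82 in males (adjusted p = 0.00422) and 0.61 in females (adjusted p = 0.0258), from 3 arrays against 3 with the spread shared over 4 groups. Over all genes, 0.928% passed within males and 0.808% within females. The other 4 called genes had the same sign in both sexes and passed in neither, with Acly at 0.33 in males and 0.36 in females, Slc25a1 at 0.23 in males and 0.29 in females, Me1 at -0.36 in males and -0.27 in females, and Mid1ip1 at -0.23 in males and -0.35 in females. The largest gap between the sexes was that of Thrsp, 0.10 in males and 0.40 in females, a difference of -0.29 for males minus females (adjusted p = 0.9999, limma). No gene of the array had an interaction of genotype and sex at an adjusted p under 0.05 (0%), and 1.79% had one at an unadjusted p under 0.05. None of the 10 genes differed between males and females (adjusted p = 0.9996 for each), as against 0.0401% of all genes.

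**Figure D4:**
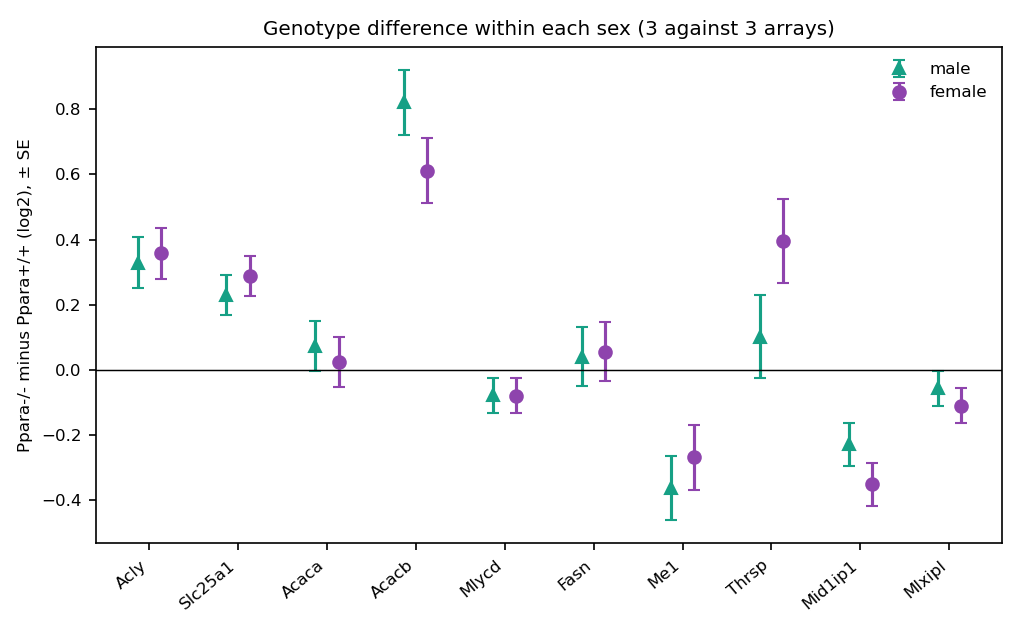
Difference between genotypes, Ppara-/- minus Ppara+/+ (log2), within males (triangles) and within females (circles) for the 10 genes, as limma estimates ± SE from 3 against 3 arrays. Acacb is at 0.82 in males and 0.61 in females, and each of the 5 called genes lies on the same side of 0 in both sexes.

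Whether the genes varied together among pups of a genotype was asked against Fasn, using deviations from the genotype means over 12 pups. None of 9 correlations passed (permutation tests, adjusted over the 9). The largest were those of Mlxipl (Pearson r = 0.66, p = 0.0355, adjusted p = 0.16 by permutation; Spearman rho = 0.41, permutation p = 0.195) and Acly (r = 0.56, p = 0.0315, adjusted p = 0.16 by permutation; rho = 0.42, permutation p = 0.118). Both were smaller without the 2 pups farthest from the median of Fasn, Ppara-/- replicate 10 and Ppara+/+ replicate 9. Without them r was 0.06 for Mlxipl and 0.08 for Acly. Leaving out pups by their Fasn values narrows its range and tends to lower r, so whether the correlations rested on these pups cannot be told. Ppara-/- replicate 10 was the lowest of its genotype for Fasn (9.75), Acly (10.16), Acaca (9.80) and Mlxipl (10.20).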

How the data were processed

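Liver RNA of 12 pups was measured on Affymetrix Mouse Gene ST arrays. The authors deposited 1 log2 signal for each probe set and array, which they background-corrected, normalized across arrays and summarised by RMA (version not given in the sources used here); RMA compresses low signals, and no scanner files were used here. From these values each of 35556 probe sets was fitted with limma 3.58.1 in R 4.3.3 (lmFit, eBayes; terms sex and genotype), with Benjamini-Hochberg adjustment across all of them. Of the probe sets, 21789 name 1 gene, 1621 several and 12146 none here. Correlations and exact tests were run in Python 3.11.15 with scipy 1.17.1, with up to 100000 permutations. Coordinates and promoters are from RefSeq (GRCm38.p6), in which all 10 genes were found.

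The 10 genes and the gene lists were chosen with earlier results of these data known, and the skeletal muscle list and the within-array differences after the values reported here had been seen. Beside the 10 genes, up to 4 genes per direction with the smallest adjusted p were named from each list, with 9 fixed regulators, targets and partners, 1 of which is not reported here. The fit was tested on simulated data. Alternatives were a fit without sex, 4 groups, other normalizations, filters, weights, tests, thresholds and probe set rules, and leaving out each array. Arrays of fetal liver were not analysed here.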

Additional observations from a re-analysis of the deposited data

Results flagged for a closer look

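Among 26 sets of 6 arrays (13 probe sets in each genotype), 3 held an array whose gap to its nearest neighbour was large against the range of its genotype, by Dixon's test. Chance gives such a gap in about 1 in 20 sets. Acly was 10.16 in Ppara-/- replicate 10, against 10.31 in the next lowest of that genotype. Thrsp was 5.65 in Ppara-/- replicate 6, against 5.95 in the next lowest, and 5.33 in Ppara+/+ replicate 7, against 5.65 in the next lowest. Without Ppara-/- replicate 10 the log2 difference of Acly was 0.37 (adjusted p = 0.00662, limma). Leaving out Ppara-/- replicate 6 gave Thrsp a log2 difference of 0.31 (adjusted p = 0.116). Leaving out Ppara+/+ replicate 7 gave it 0.17 (adjusted p = 0.222). The causes were not tested.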

How the results depend on the processing

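The 3 genes called higher (Acacb, Acly, Slc25a1) were called again without the sex term, with 4 groups, after quantile normalization or median centring, without dim probe sets, with single-gene probe sets only, with a robust variance trend, with array weights, and with any 1 array left out (3 in each case). The 2 called lower became 1 with 4 groups, 1 with probe sets of a gene averaged, 4 at unadjusted p-values, and 1 to 2 with 1 array left out. With an adjusted exact Mann-Whitney test 0 were lower and 0 higher, since 6 against 6 arrays give a p of at least 0.00216 and the 5 genes had an adjusted p of 0.0691; at an absolute log2 change above 1.3, 0 and 0; and at a linear change above 1.3-fold, 0 lower and 1 higher. Me1 had an adjusted p of 0.0517 with 4 groups. No direction of the 10 genes' differences changed.

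Over all probe sets, 281 were lower and 536 higher. The counts were 449 and 876 without dim probe sets, 537 and 930 with array weights, 131 and 197 at a 1.3-fold change, 13 and 5 at a log2 change above 1.3, 2515 and 2814 at unadjusted p-values, 0 and 0 by the Mann-Whitney test, and 454 and 933 without Ppara+/+ replicate 7. Those higher were 815 with a robust trend, 349 without Ppara-/- replicate 11, 344 without Ppara+/+ replicate 8 and 356 without Ppara+/+ replicate 3. Among the other lists, carbohydrate-responsive genes called higher went from 1 to 3 without dim probe sets or with single-gene probe sets only. They also went to 3 with a robust trend or with array weights, and to 2 without the sex term. Those of triglyceride assembly went from 0 to 3 without dim probe sets and to 3 with a robust trend. They went to 2 without the sex term, 2 with single-gene probe sets only and 1 with array weights. The transcriptional regulators had 1 lower and 2 higher without dim probe sets, and the same counts with single-gene probe sets only. With array weights, 4 Kupffer cell, 3 endothelial and 1 stellate cell markers passed as higher and 1 erythroid marker as lower. Without dim probe sets these counts were 2, 1, 1 and 1. At least 1 Kupffer cell and 1 endothelial marker also passed without the sex term, with single-gene probe sets only and with a robust trend.

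Correlations with Fasn changed sign for Acaca (-0.27), Acacb (-0.13) and Thrsp (0.40) without the 2 pups farthest from the median, for Acacb within Ppara+/+ (-0.49), for Me1 within Ppara-/- (0.053) and for Thrsp with genotype means left in (0.045). No paired analysis was possible because the litter of each pup is unknown here. Brightness limits Thrsp, which lay below the array medians.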

Other observations

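The 5 genes whose values over the 12 arrays were most like those of Fasn, by Pearson r, were Rgmb (0.84), Il4 (0.84), Igf2r (0.82), Mttp, which loads lipid onto lipoproteins (0.81), and Ehmt2 (0.81). They are given as a description of these arrays, which share genotype and pup, and none is a member of the pathway. Il4 was dim, with a mean of 5.33 (log2).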
